A study of Gallus gallus with 6 samples.

Results

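The genes described here are 10 transcription factor genes of skin patterning: the homeobox genes MSX1, MSX2, DLX3, DLX5, DLX6, EN1 and LMX1B and the T-box genes TBX3, TBX15 and TBX18. They were chosen by name and read from the 23724 rows of a bulk RNA-seq table of feather papilla ectoderm, in which each of the 10 has a row under its own symbol. Papilla ectoderm is the layer of epidermis that wraps the dermal papilla, and its label calls it epidermal progenitor cells. It came from contour feather follicles of untreated White Leghorn chickens, regenerating for 3 weeks in the early growth phase, for 7 weeks in the late growth phase and for 10 weeks in the resting phase. There are 6 libraries, 2 for each phase, and all carry the same batch label. The feathers were plucked and the sheet was freed from the dermal papilla with EDTA. The study's methods state that its chickens were males between 6 months and 1 year old, without an age for each library. No source used here says whether both libraries of any phase were taken from separate birds, so p values measure only the spread between libraries, which may be technical.

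MSX and DLX proteins bind DNA through a homeodomain and are commonly induced by BMP signals in ectoderm and in the mesenchyme under it. In the mouse, Dlx3 and Msx2 act in the hair matrix and are needed for a normal hair shaft. T-box proteins share another DNA-binding domain, and mouse Tbx15 and Tbx18 are known from the dermis and its precursors rather than from epidermis. In the limb, En1 marks ventral ectoderm, and Lmx1b gives the mesenchyme its dorsal character downstream of Wnt7a.

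Values are TPM, a unit of transcripts relative to the library's total that is scaled for transcript length, so levels of different genes can be set side by side. Without read counts the depth is unknown, and a 0 in the table need not mean that no read was found. Differences between phases were tested with limma on log2(TPM + 1) over the 13063 genes with a mean above 1 TPM. A change was called at an adjusted p (Benjamini-Hochberg) under 0.05. Of the 10 genes, 8 passed the filter. TBX18, EN1 and TBX3 passed narrowly, with means of 1.13, 1.42 and 1.53 TPM, and were at or near 0 in part of the libraries, so that passing already required a difference between libraries. MSX1 (mean 0.511 TPM) and DLX6 (0.135 TPM) lay below the filter. A low level, such as these, is where a listed 0 is least reliable. Early growth replicate 2 listed 814 of the tested genes at 0, against 124 in replicate 1 and 405 to 577 in the other libraries.

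The labelled cell type was checked against marker lists. The keratinocyte list of 10 genes, led by KRT5 and KRT14, took 0.939 to 1.28% of TPM in every library, with no marker listed at 0. The libraries also held a list of 16 fibroblast and dermal papilla markers led by VIM and DCN, whose share was 0.281 and 0.273% in early growth, fell to 0.0401 and 0.0415% later in growth, and reached 0.374 and 0.377% at rest. The share of the 10 smooth muscle markers, led by DES and TAGLN, was 0.256 and 0.198%, then 0.0329 and 0.0352%, then 4.31 and 4.39%. The erythroid list took 3.56 and 3.58% in the resting phase and at most 0.154% before. In such bulk samples, fewer cells of a type and less RNA per cell cannot be told apart.

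The 10 genes fell into 3 sets by level, except that TBX15 moved between them from phase to phase. DLX3, MSX2 and LMX1B were abundant, and together they made up 90.7 and 91.1% of the summed TPM of the 10 genes in early growth, 96.6 and 95.7% late in growth and 73.9 and 71.7% at rest. DLX5 lay between 10.5 and 16.7 TPM throughout, and TBX15 between 0.228 and 38.4 TPM. TBX3, TBX18, EN1, MSX1 and DLX6 never exceeded 3.82 TPM. The summed level was 367 and 339 TPM in early growth, 395 and 393 TPM later in growth and 202 and 203 TPM at rest.

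**Figure D1:**
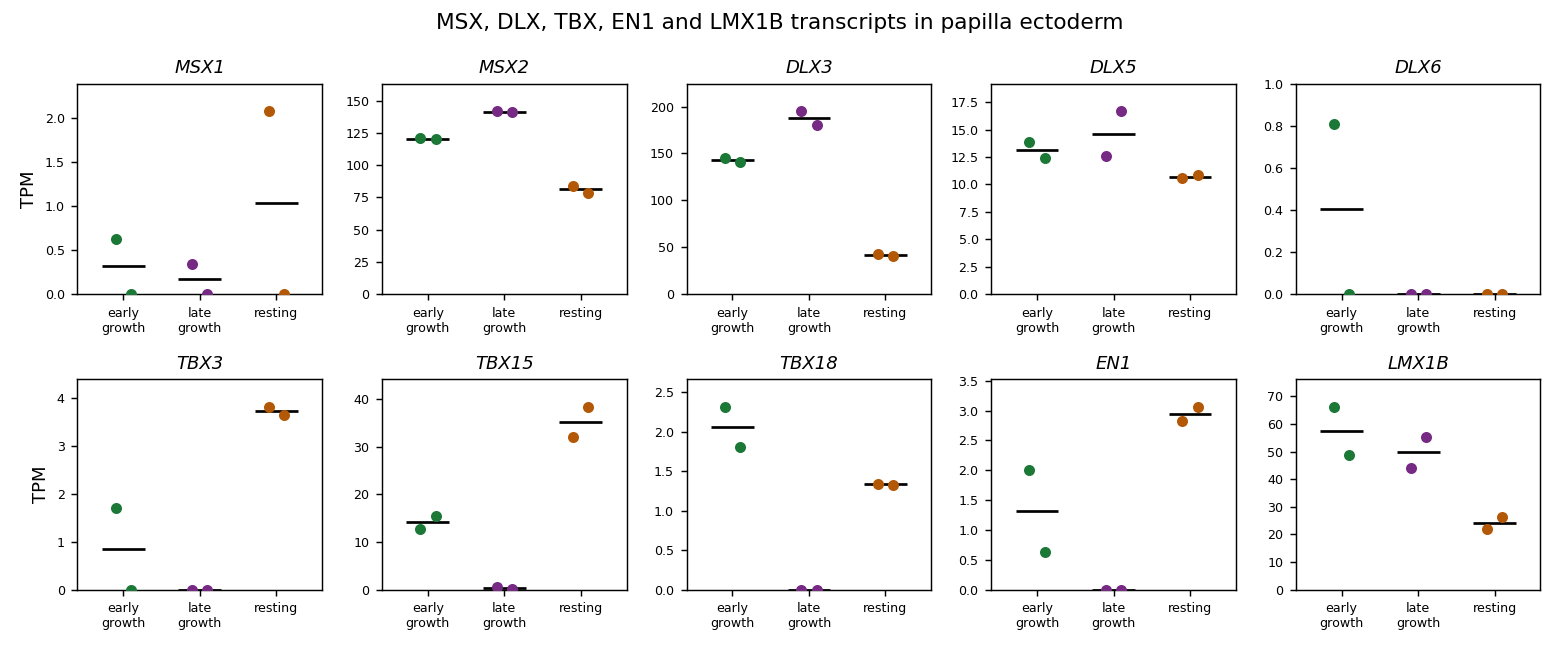
TPM of each of the 10 genes (vertical axis, from 0, a scale of its own in each panel) by phase, with 1 point per library and a bar at the mean of the 2 libraries. DLX3 and MSX2 are lowest in the resting phase, and TBX15, TBX18 and EN1 are lowest in the late growth phase, where TBX18 and EN1 are listed at 0.

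DLX3 was the most abundant of the 10 genes in both growth phases and lost most of its transcript at rest. It stood at 146 and 140 TPM in early growth, 195 and 180 TPM late in growth and 43.1 and 40.4 TPM at rest. No library of one phase overlapped another phase, and the order of phases was late growth, early growth, resting. The rise into late growth was modest, from 143 ± 3.68 to 188 ± 10.7 TPM (SD, n = 2), a log2 difference of 0.39 (SE 0.09, limma adjusted p = 0.020). It was called in the full fit but not without early growth replicate 2 (adjusted p = 0.051) or late growth replicate 1 or 2 (adjusted p = 0.12 and 0.066), with differences of 0.36, 0.33 and 0.45. On entry into rest DLX3 fell 4.50-fold, to 41.7 ± 1.94 TPM (SD, n = 2). The log2 difference was −2.14 (SE 0.09, limma adjusted p = 2.0e-05), larger in size than for 88.1% of the tested genes. Against early growth it was −1.75 (limma adjusted p = 5.4e-05).

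MSX2, which in the mouse is needed for hair shaft differentiation and normal hair cycling, followed the same order of phases over a narrower range. It was at 121 and 120 TPM in early growth, 142 and 141 TPM late in growth and 83.9 and 78.6 TPM at rest. The phases did not overlap here either, and both libraries of a phase lay close together. The log2 difference from early to late growth was 0.23 (SE 0.08, limma adjusted p = 0.073) and missed the threshold. It passed under median-of-ratios scaling (0.56, adjusted p = 0.010) and under quantile normalization (0.46, adjusted p = 0.011). From late growth to rest MSX2 fell 1.74-fold, a log2 difference of −0.79 (SE 0.08, limma adjusted p = 5.1e-04). Rest was also below early growth (−0.56, limma adjusted p = 0.0020), a call that was lost under median-of-ratios scaling (−0.23, adjusted p = 0.097) and under quantile normalization (−0.20, adjusted p = 0.088).

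The unequal fall of DLX3 and MSX2 reversed their order. The ratio of DLX3 to MSX2 TPM within a library was 1.20 and 1.17 in early growth, 1.38 and 1.28 late in growth and 0.514 in each resting library. DLX3 thus led in each of the 4 growth libraries and MSX2 in both resting libraries. In each phase the ranges of the 2 genes were separate.

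LMX1B was the third gene in level during growth. It is a LIM homeobox gene that is best known from dorsal limb mesenchyme, and its transcript here was well above that of the mesenchymal T-box genes in both growth phases. It was at 66.2 and 48.7 TPM in early growth, 44.0 and 55.4 TPM late in growth and 22.1 and 26.3 TPM at rest. The growth phases overlapped, and both resting libraries lay below them. The difference from early to late growth was −0.20, with a 95% confidence interval of −0.69 to 0.29 (limma adjusted p = 0.49), and its sign turned under median-of-ratios scaling, under quantile normalization and without early growth replicate 1. At rest LMX1B was 2.05-fold below late growth, a log2 difference of −1.0 (SE 0.20, limma adjusted p = 0.0081). That call was lost without late growth replicate 2 (−0.84, adjusted p = 0.067) or resting replicate 1 (−0.88, adjusted p = 0.071). Against early growth the difference was −1.20 (limma adjusted p = 0.0040). In the gene annotation of RefSeq, the span of the LMX1B gene overlaps that of a long noncoding RNA gene. Exons were not compared. This library kit does not mark the strand, so reads from any shared exon sequence could not be told apart.

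DLX5, known from limb ectoderm and from bone, was lower, and its phases lay close together. It was at 13.9 and 12.4 TPM in early growth, 12.5 and 16.7 TPM in late growth and 10.5 and 10.9 TPM at rest. The growth phases overlapped, and both resting libraries lay below the 4 growth libraries. No comparison of DLX5 was called. The difference between late and early growth was 0.13 (95% confidence interval −0.37 to 0.64, limma adjusted p = 0.66), and that between rest and late growth was −0.40 (−0.91 to 0.10, limma adjusted p = 0.16). The comparison of rest with late growth passed with quantile normalization only among the alternatives (−0.60, adjusted p = 0.040). The interval of that comparison includes a fall of the size seen for MSX2.

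**Figure D2:**
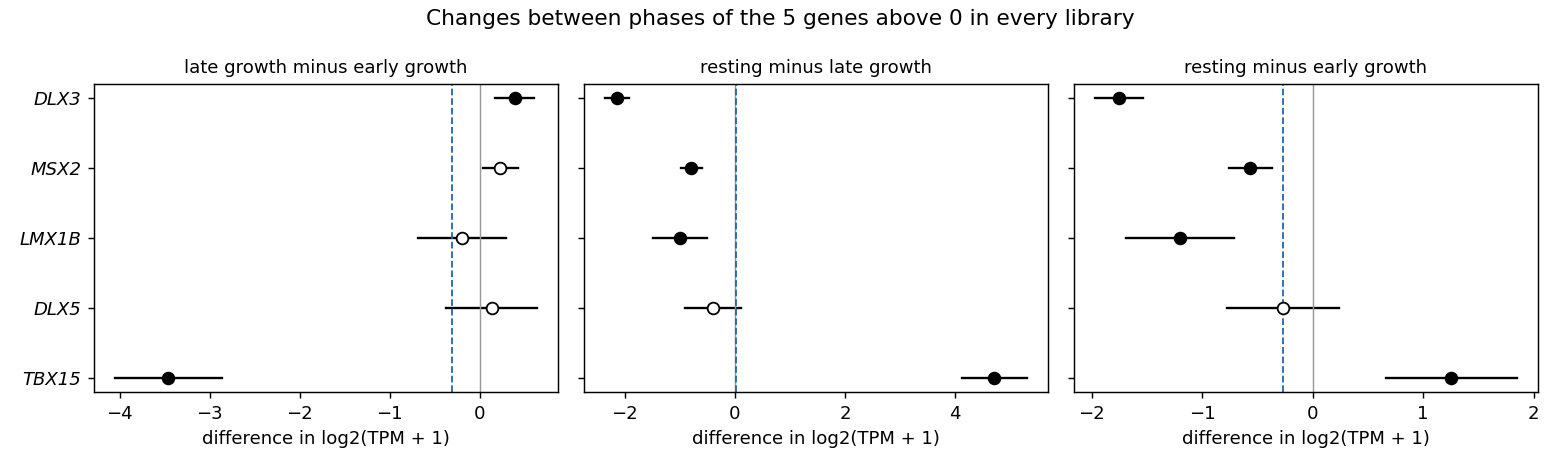
Difference in log2(TPM + 1) between phases (horizontal axis, a scale of its own in each panel) for DLX3, MSX2, LMX1B, DLX5 and TBX15, with 95% confidence intervals from limma, filled points for an adjusted p under 0.05 and a dashed line at the median of all tested genes. DLX3, MSX2 and LMX1B lie below 0 and TBX15 above 0 in both comparisons with rest, whereas from early to late growth TBX15 falls by 3.46.

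DLX genes lie in pairs, and the 4 DLX genes of 2 pairs showed contrasting behaviour. In the RefSeq annotation DLX3 is next to DLX4, and DLX5 next to DLX6. DLX4 was at 84.9 and 100 TPM in early growth, 106 and 101 TPM in late growth and 12.7 and 12.1 TPM at rest. Like DLX3 it was lowest in both resting libraries, and it fell 8.33-fold from late growth (log2 difference −2.96, SE 0.12, limma adjusted p = 2.0e-05). The ratio of DLX3 to DLX4 was 1.40 to 1.85 in the growth libraries and 3.40 and 3.33 at rest. DLX6, in contrast, was listed at 0 in 5 libraries and at 0.810 TPM in early growth replicate 1, while DLX5 beside it was above 10 TPM in all 6. DLX1 and DLX2 did not exceed 1.03 TPM in any library.

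**Figure D3:**
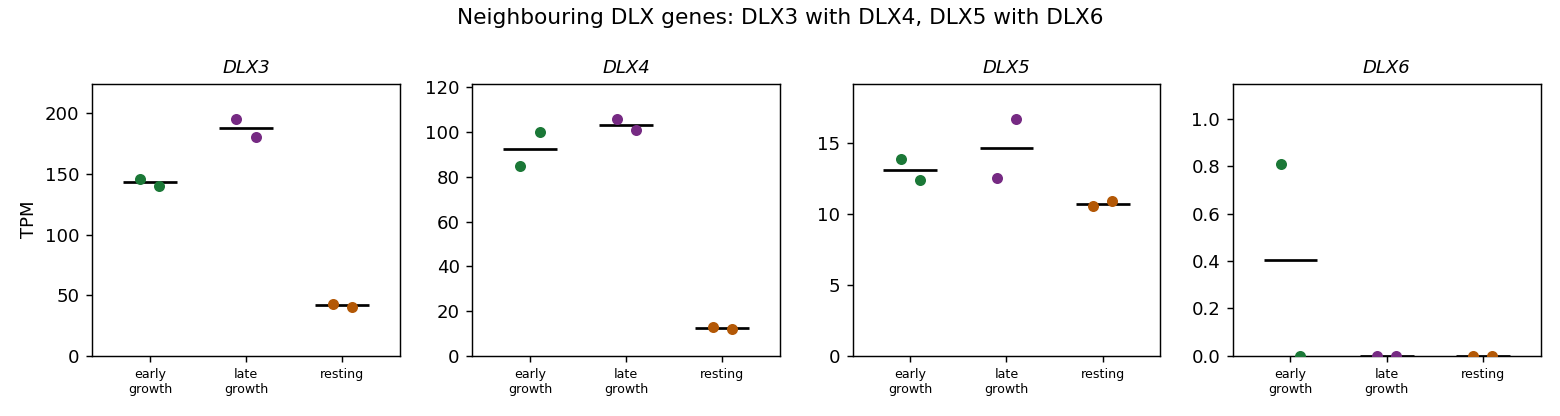
TPM of the neighbouring genes DLX3 and DLX4 and of the neighbouring genes DLX5 and DLX6 by phase (vertical axes from 0, a scale of their own in each panel), with 1 point per library and a bar at the mean. DLX3 and DLX4 are both lowest at rest, at 41.7 and 12.4 TPM, whereas DLX5 is present in every library and DLX6 in 1.

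MSX1, the near relative of MSX2 that acts in mesenchyme of tooth and limb in the mouse, was hardly detected. It was at 0.632 and 0 TPM in early growth, 0.348 and 0 TPM in late growth and 2.08 and 0 TPM at rest. In each phase 1 of the 2 libraries listed it at 0, and no statement on a change of MSX1 can be made from these values.

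TBX15 was lowest in late growth, where DLX3 was highest, and highest at rest, where DLX3 was lowest. It was at 12.9 and 15.5 TPM in early growth, 0.547 and 0.228 TPM late in growth and 32.1 and 38.4 TPM at rest. The phases did not overlap, with late growth lowest and rest highest. From early to late growth the mean fell 36.6-fold, from 14.2 ± 1.90 to 0.388 ± 0.226 TPM (SD, n = 2). With so low a level in late growth, that ratio is imprecise. On the log2(TPM + 1) scale, which shrinks changes of low values, the difference was −3.46 (SE 0.24, limma adjusted p = 4.4e-04). It was larger in size than for 98.7% of the tested genes. On entry into rest the difference was 4.71 (limma adjusted p = 4.3e-05), and the mean reached 35.3 ± 4.44 TPM (SD, n = 2). Rest was 2.48-fold above early growth (1.25, limma adjusted p = 0.0069), a call that was lost without resting replicate 2 (1.13, adjusted p = 0.063). TBX15 ranked above LMX1B and below DLX3 at rest, and each of these steps in the order was separate in range.

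TBX18, TBX3 and EN1 were low and were listed at 0 in both libraries of late growth. They passed the filter only through the phases where they are high. A difference from late growth was thus built into their being tested, and nothing is read from their calls against it. TBX18 was at 2.32 and 1.81 TPM in early growth, listed at 0 in both libraries of late growth, and back at 1.34 and 1.33 TPM when resting. It passed as lower in late than in early growth (limma adjusted p = 0.013) and as higher at rest than in late growth (limma adjusted p = 0.022). Both late growth libraries are listed at 0, so leaving out either left the differences unchanged (−1.61 for the fall and 1.23 for the rise). With fewer libraries neither call held. The rise was also not called with quantile normalization (0.88, adjusted p = 0.058). EN1, the marker of ventral ectoderm in limbs, was at 2.01 and 0.636 TPM in early growth, listed at 0 in late growth and at 2.83 and 3.06 TPM at rest. Its difference from early to late growth missed the threshold (limma adjusted p = 0.072), though it passed without early growth replicate 2 (adjusted p = 0.010) and with a pseudocount of 0.1 (adjusted p = 0.022). Its rise into rest passed (1.98, limma adjusted p = 0.0083). Without either late growth library the difference stayed at 1.98, both being listed at 0, but the call was lost with fewer libraries.

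TBX3, which acts in limb and mammary gland development, was at 1.70 and 0 TPM in early growth, listed at 0 in late growth, and at 3.82 and 3.65 TPM at rest. Early and late growth overlapped at 0, and their difference was not called (−0.72, limma adjusted p = 0.33). Both resting libraries were above the other 4. The rise from late growth into rest passed (2.24, limma adjusted p = 0.014), but nothing is read from it, as stated for the 3 genes above. With any 1 of the late growth or resting libraries left out the difference was 2.22 to 2.27, and the call was lost. Between rest and early growth the adjusted p was 0.051. It depended on the scaling (limma adjusted p = 0.027, 0.0082 and 0.043 with median-of-ratios, quantile and rescaled values). The difference was 2.24 without early growth replicate 1 and 0.81 without replicate 2. TBX3 passed the filter only through the resting libraries, so a difference of rest from early growth was also built into its being tested. Nothing is read from that comparison either. The TBX3 gene also overlaps long noncoding RNA genes in the RefSeq annotation.

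Counted by comparison, 3 of the 8 tested genes were called from early to late growth and 7 from late growth to rest. From early to late growth 1 gene, DLX3, was higher, against 5.24% of all tested genes, and 2 genes, TBX15 and TBX18, were lower, against 28.4%. From late growth to rest 4 genes, TBX15, TBX18, TBX3 and EN1, were higher, against 24.7% of all tested genes, and 3 genes, DLX3, MSX2 and LMX1B, were lower, against 23.1%. From early growth to rest 1 gene, TBX15, was higher, against 15.8% of all tested genes, and 3 genes, DLX3, MSX2 and LMX1B, were lower, against 34.0%. Each phase enters 2 of the comparisons, so they share libraries. TBX18, TBX3 and EN1 passed the filter only through the phases where they are high, so a difference from late growth was built into their being tested and nothing is read from their part of these counts. Of the 5 genes that were above 0 in every library, TBX15 was higher and DLX3, MSX2 and LMX1B were lower at rest than in late growth. The median log2 difference of the tested genes was −0.31 from early to late growth, 0.02 from late growth to rest and −0.27 from early growth to rest. Relative to these medians, DLX3 differed by 0.70, −2.16 and −1.48, MSX2 by 0.54, −0.81 and −0.29, and TBX15 by −3.15, 4.69 and 1.53. With quantile normalization the medians became 0.04, −0.12 and −0.04.

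Most of the other tested transcription factors of mesenchyme also dipped in late growth. Of 16 such factors, 11 were tested. From early to late growth 8 of them were lower and 0 higher, against 28.4% and 5.24% of all tested genes, with a median of −2.47. From late growth to rest 9 were higher and 1 lower, against 24.7% and 23.1%, with a median of 5.13. OSR2, among the 9, was at 1.44 and 0 TPM in early growth, listed at 0 in late growth and at 12.7 and 7.97 TPM at rest. It passed the filter only through the resting phase, so nothing is read from its call. With median-of-ratios scaling or quantile normalization 2 of the 11 were also higher in late than in early growth. PRRX1, a homeobox factor of limb and skin mesenchyme, was at 52.4 and 59.6 TPM in early growth, 2.11 and 1.69 TPM in late growth and 224 and 238 TPM at rest. Its log2 differences at these steps were −4.30 and 6.32 (limma adjusted p = 3.9e-05 and 3.3e-06). PRRX2 (−3.33 and 6.85), TWIST2 (−4.58 and 5.91), TWIST1 (−2.20 and 5.40) and ZEB2 (−3.30 and 5.38) were called in the same directions. All 16 markers of fibroblasts and dermal papilla fell from early to late growth and rose from late growth to rest. All 16 did so with each of the other scalings too. The part of these markers in the course of TBX15, TBX18, TBX3 and EN1 was not tested.

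The median log2 differences of the 16 markers at these steps, −3.15 and 4.28, were near those of TBX15, −3.46 and 4.71. Single markers ranged widely, from a 2.6-fold fall of DCN to a 106-fold fall of POSTN from early to late growth, against 36.6-fold for TBX15. POSTN was at 0.160 and 0.173 TPM in late growth, so its ratio is imprecise, as is that of TBX15. A ratio to the summed list therefore depends on its most abundant genes, VIM and DCN, which fell 7.27-fold and 2.6-fold. Per 1000 TPM of the summed list TBX15 was at 4.59 and 5.71 in early growth, 1.37 and 0.551 later in growth and 8.67 and 10.3 at rest. Late growth was lowest and rest highest on that scale, which does not separate TBX15 from the markers that fell more than VIM and DCN. Per 1000 TPM of the keratinocyte list, DLX3 was at 12.4 and 11.0, then 20.8 and 18.6, then 4.64 and 4.29, and MSX2 at 10.3 and 9.41, then 15.1 and 14.6, then 9.03 and 8.36. DLX3 kept its separation of the 3 phases on that scale, and so did MSX2, narrowly between early growth and rest (9.41 against 9.03). That scale depends on KRT5 and KRT14, the most abundant genes of the list. TP63, also on the list, rose from 273 and 267 TPM in early growth to 474 and 499 TPM in late growth, more than DLX3 or MSX2. Relative to TP63 alone, DLX3 and MSX2 were therefore lower in late than in early growth. The order of the phases thus does not hold against every single marker. The list itself moved, since 7 of its 10 genes fell and 3 rose from late growth to rest. With TPM rescaled to leave out the erythroid and smooth muscle lists, the differences between rest and late growth were −2.0 for DLX3, −0.65 for MSX2, −0.86 for LMX1B and 4.86 for TBX15, each still called (limma adjusted p = 2.7e-05, 0.0012, 0.015 and 4.1e-05).

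**Figure D4:**
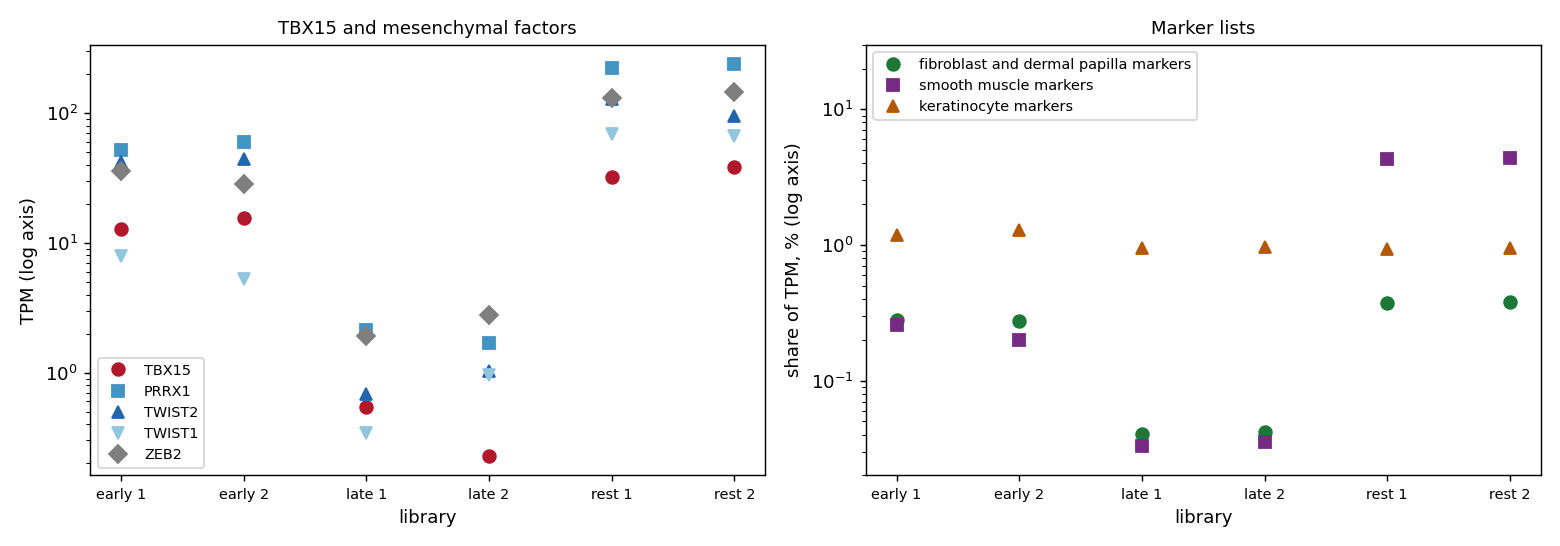
Left, TPM of TBX15 and of the mesenchymal factors PRRX1, TWIST2, TWIST1 and ZEB2 in each library (log axis). Right, the share of all TPM taken by the marker lists of fibroblasts and dermal papilla, smooth muscle and keratinocytes in each library (percent, log axis). TBX15 and the 4 factors are lowest in the 2 late growth libraries, where the fibroblast list is at 0.0401 and 0.0415%, and the keratinocyte list stays between 0.939 and 1.28%.

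Among 17 other genes of the DLX, T-box, engrailed and LMX1 families with a row, 5 were tested. TBX1 was the highest of these in early growth and at rest, and DLX4, at 106 and 101 TPM, in late growth. TBX1, which in the mouse is a gene of hair follicle stem cells, was at 354 and 405 TPM in early growth, 82.1 and 86.8 TPM in late growth and 60.4 and 59.7 TPM at rest. It fell at both steps, by 2.15 and 0.48 on the log2 scale (limma adjusted p = 1.0e-04 and 0.0073). EOMES was listed at 0 in the 4 growth libraries and was at 6.35 and 4.82 TPM at rest. It passed the filter only through the resting phase, so nothing is read from its call. Besides EOMES, DLX4 and TBX1 were called at the step into rest, both lower. EN2 and LMX1A, the closest relatives of EN1 and LMX1B, were listed at 0 in every library.

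Genes of BMP and WNT signalling, the inputs of MSX, DLX and LMX1B genes elsewhere in the embryo, were called in both directions. From early to late growth 1 of 19 tested genes, SMAD5, rose and 7 fell, against 5.24% and 28.4% of all tested genes. Their median of −0.16 became 0.17 under median-of-ratios scaling and 0.014 under quantile normalization. Under median-of-ratios scaling 2 rose and 7 fell, and under quantile normalization 3 rose and 5 fell. From late growth to rest 7 of the 19 rose and 3 fell, against 24.7% and 23.1% of all tested genes. With 19 genes, nothing is read from the counts at either step. Their median was 0.02 and became −0.035 with quantile normalization. BMP4, a ligand, was at 46.8 and 29.9 TPM, then 3.95 and 3.54 TPM, then 71.6 and 72.7 TPM. It dipped in late growth (−3.02 and 3.95, limma adjusted p = 5.6e-04 and 6.7e-05), when MSX2 and DLX3 were highest. The secreted antagonists GREM1 (−3.54 and 1.46), CHRD (−2.31 and 2.67) and FST (−1.96 and 0.55) were called in the directions of BMP4 at both steps. The rise of GREM1 was not called with quantile normalization (adjusted p = 0.10). Another antagonist, NOG, was called at neither step, with means of 11.4, 4.91 and 3.06 TPM in early growth, late growth and rest. From early growth to rest BMP4 was called higher. GREM1, FST and NOG were called lower over that span, and CHRD was not called. The call of NOG was lost with median-of-ratios scaling (−1.43, adjusted p = 0.056). The 16 markers led by VIM and DCN took the directions of BMP4 at both steps too, with medians of −3.15 and 4.28. How far BMP4 and the 3 antagonists follow the share of those markers, rather than the epidermis, was not tested. BMP2, another ligand, was at 45.0 and 40.8, 33.3 and 47.5, and 18.4 and 14.6 TPM. It was not called from early to late growth. At rest it was called lower than in either growth phase, the direction of DLX3 and MSX2. BMP7 was at 84.6 and 76.5, 88.7 and 104, and 77.1 and 78.1 TPM and was not called with the deposited TPM. WNT5A was at 31.1 and 42.8 TPM, then 14.9 and 16.8 TPM, then 50.6 and 40.6 TPM. It was called lower in late growth and higher at rest, directions that the 16 markers shared. AXIN2 was at 9.79 and 11.1, 9.05 and 10.2, and 26.2 and 26.9 TPM and was called higher at rest than in late growth. WNT7A, the dorsal ectoderm signal upstream of Lmx1b in the limb, was chosen after its values were seen. It was at 12.5 and 16.5 TPM in early growth, 6.05 and 5.07 TPM in late growth and 3.40 and 4.46 TPM at rest. Its fall into late growth (−1.24, limma adjusted p = 0.015) was not called with quantile normalization (adjusted p = 0.14).

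Among 8 genes that respond to BMP signalling in many cells, 0 rose and 4 fell from early to late growth. The shares of all tested genes were 5.24% and 28.4%. From late growth to rest 2 of the 8 rose and 4 fell, against 24.7% and 23.1% of all tested genes. At the first step 2 rose and 1 fell under median-of-ratios scaling, while 1 rose and 1 fell under quantile normalization. At the second step 3 rose and 3 fell with rescaled TPM. ID1, an inhibitor of helix-loop-helix factors, was at 361 and 430 TPM, then 256 and 187 TPM, then 93.9 and 71.1 TPM. It fell into rest (−1.41, limma adjusted p = 0.0020), as MSX2 did, and its fall into late growth (−0.85, adjusted p = 0.022) was not called with median-of-ratios scaling or quantile normalization (adjusted p = 0.16 and 0.064). BAMBI, a decoy receptor, fell at both steps (−0.83 and −0.65, limma adjusted p = 0.0054 and 0.0073). SMAD6 and SMAD7, the inhibitory SMADs, rose into rest (1.35 and 0.77, limma adjusted p = 1.3e-04 and 0.024), opposite to MSX2.

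Factors that act in the mammalian hair matrix and its differentiating layers were called in both directions at the step into rest, more of them lower, as DLX3 was. Of 10 tested, 6 fell and 2 rose from late growth to rest, against 23.1% and 24.7% of all tested genes. With quantile normalization 5 fell and 2 rose at this step. From early to late growth 2 rose and 1 fell, against 5.24% and 28.4% of all tested genes. With median-of-ratios scaling or quantile normalization 4 rose and 1 fell at that step. FOXN1 is among the 6 that fell into rest and the 2 that rose into late growth. FOXN1, a factor of hair keratinization that acts downstream of Msx2 in the mouse, was at 0.843 and 0 TPM in early growth, 5.92 and 6.43 TPM in late growth and 0.321 and 0.464 TPM at rest. It was highest in late growth (2.40 and −2.37, limma adjusted p = 0.0069 and 0.0039). FOXN1 passed the filter only through that phase, so a difference from late growth was built into its being tested. Nothing is read from its likeness to DLX3 and MSX2 or from its part of these counts. GATA3, a factor of the inner root sheath of hair, rose into late growth (0.88, limma adjusted p = 0.018). GRHL1 (−4.87) and CUX1 (−2.43) fell into rest with limma adjusted p = 1.1e-04 and 2.0e-05. PRDM1 rose into rest (3.67, limma adjusted p = 2.9e-04). KLF4 fell from early to late growth (−0.98, limma adjusted p = 0.0026).

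For each of the 8 tested genes, the 3 named genes with the most similar profile over the 6 libraries were taken, by the root mean square difference of log2(TPM + 1) after centring each gene on its own mean. For DLX3 these were SFN, the 14-3-3 protein of stratified epithelia (0.086), BZW2 (0.10) and HMGN5 (0.11). SFN was at 1226 and 1348 TPM in early growth, 1979 and 1794 TPM in late growth and 418 and 389 TPM at rest. For MSX2 they were USP10 (0.037), SRSF10 (0.049) and IPO5 (0.054), genes of general cell function, and 1374 genes came within 0.25 of its profile. By that limit 79 genes were close to DLX3 and 5 to TBX15. TBX15 was most like ANXA6 (0.10), TMEM119 (0.12) and CTGF (0.20). ANXA6 was at 108 and 118 TPM, then 9.53 and 9.27 TPM, then 239 and 275 TPM, a dip in late growth with the highest level at rest.

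The profile of LMX1B was closest to CSE1L (0.072), the homeobox gene HHEX (0.081) and POLA1 (0.087), the catalytic subunit of a DNA polymerase. DLX5 was most like RAB10 (0.049), SEH1L (0.055) and YY2 (0.058), among 1771 genes within 0.25 of its flat profile. TBX18 was closest to CECR1 (0.058), the BMP receptor gene BMPR1B (0.073) and TPP1 (0.074), among 146 genes within 0.25. TPP1 was at 204 and 199 TPM in early growth and 71.6 and 65.5 TPM in late growth, where TBX18 was listed at 0. The pseudocount of 1 TPM shrinks changes at the low level of TBX18, which makes such a match possible. EN1 was closest to SLC9A7 (0.096), CHN1 (0.10) and MAPT (0.11), among 60 genes within 0.25. TBX3 was closest to RBM11 (0.11), NT5DC4 (0.13) and MIR1608 (0.13), which were likewise listed at 0 in early growth replicate 2 and in both late growth libraries. TBX18, EN1 and TBX3 passed the filter only through the phases where they are high, so nothing is read from their likeness to these genes.

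Within a phase, the order of the 10 genes by mean level was well separated at the top and not at the bottom. In early growth it ran DLX3, MSX2, LMX1B, TBX15, DLX5, TBX18, EN1, TBX3, DLX6 and MSX1. TBX15 and DLX5 overlapped there, and from TBX18 downward each neighbour overlapped the next. In late growth DLX3, MSX2, LMX1B and DLX5 stood apart from each other and from the remaining 6, which reached at most 0.547 TPM. At rest the order was MSX2, DLX3, TBX15, LMX1B, DLX5, TBX3, EN1, TBX18, MSX1 and DLX6, and only from TBX18 downward did the libraries of neighbours overlap.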

How the data were processed

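The authors computed the deposited TPM values per library with StringTie at default parameters on the chicken genome build GRCg6a, names that the submitters' processing notes also list. Per the labels and the paper's methods, TruSeq v2 libraries of single short reads were made from total RNA. Neither the aligner nor the StringTie version is given in the sources used here. These TPM were used as deposited, 1 column per library, since no read counts were used here, and the count model of the paper's methods was replaced by limma.

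A single limma model (limma 3.58.1, R 4.3.3) of the 3 phases was used for log2(TPM + 1), a pseudocount of 1, in genes whose mean exceeded 1 TPM. The prior variance followed a trend in mean level, with 3.01 prior degrees of freedom. Benjamini-Hochberg adjustment covered all 13063 genes in each comparison. Intervals are at 95%. Simulated data of known change were used to test the script. An exact two-sided permutation test of 2 libraries against 2 cannot go below p = 0.333, so calls rest on the spread shared among genes. Read totals are unknown, and precision comes only from the spread between libraries. 21 row names look like dates left by a spreadsheet and belong to no list. For gene names, neighbours and overlaps, RefSeq on GRCg7b was used, by the start and end of each gene. No coordinates are printed. Of 156 list entries 5 had no row. HBM was read for HBAD and ALAS1 for ALAS2. From late growth to rest 8 of the 10 erythroid entries were called higher, HBBA lower and ALAS1 neither. The ALAS1 row stayed in the rescaled TPM. No sequences are shown.

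The genes, lists and tests were chosen with earlier results of these data known. Named are the 10 genes, up to 4 called genes per list and step by size of change, the leading markers, and the 3 most similar genes. Similarity is given as a difference and not as a correlation over libraries, since the libraries fall into 3 phases. WNT7A, AXIN2, BMP2, BMP7, NOG, DLX1, DLX2, EN2 and LMX1A levels and the marker ratios were chosen after values were seen. The alternatives comprised a pseudocount of 0.1 or 0.5, no filter or a mean of 5 TPM, 3 other scalings (median-of-ratios, quantile, and TPM rescaled without the erythroid and smooth muscle lists and symbols beginning with HB), only the 2 phases compared, robust moderation, a replicate block, each library left out, and the thresholds in the methods (log2 difference above 2, adjusted p under 0.01).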

Additional observations from a re-analysis of the deposited data

How the results depend on the processing

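For the 8 tested genes and the 3 comparisons, 339 of the alternative values kept the side of the threshold without a reversed sign. Of the others, 19 lost the call, 12 gained one and 5 changed sign. Among the 339 is TBX3 for late against early growth without early growth replicate 1, where the difference was 0 and had no direction. The sign changes were DLX5 without late growth replicate 2 (−0.059, against 0.33 without replicate 1) for late against early growth and with median-of-ratios scaling (0.043) for rest against early growth, and LMX1B for late against early growth with median-of-ratios scaling (0.13), quantile normalization (0.10) and without early growth replicate 1 (0.021, against −0.41 without replicate 2). None of these had been called. The cause was not tested.

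From early to late growth the number of the 10 genes called higher was 1, and became 2 under median-of-ratios or quantile scaling, 0 with the thresholds of the methods, and 0 to 1 with 1 library left out. The number called lower was 2, and became 3 with a pseudocount of 0.1, and 1 at a mean of 5 TPM and with the thresholds of the methods. It moved when some single libraries were left out. From late growth to rest 4 were called higher, and 3 with quantile normalization. The number became 1 at a mean of 5 TPM (fewer genes are tested there) and with the thresholds of the methods. It moved when some single libraries were left out. The number called lower was 3, and became 4 with quantile normalization and 1 with the thresholds of the methods. It also moved when late growth replicate 2 or resting replicate 1 was left out. From early growth to rest 1 was called higher, and 2 with median-of-ratios scaling, quantile normalization and rescaled TPM, 0 with the thresholds of the methods and 0 to 3 with 1 library left out. The 3 called lower became 2 with median-of-ratios scaling and quantile normalization, and 0 with the thresholds of the methods.

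Deviations from the phase mean of same-numbered libraries correlated over genes at −0.0289, 0.00830 and 0.0149, so no shared deviation was seen. With 2 libraries per phase this cannot show whether same-numbered libraries came from the same bird or preparation. With the replicate block the calls of the 8 genes were the same, at 1 higher and 2 lower, 4 higher and 3 lower, and 1 higher and 3 lower in the 3 comparisons. Without a filter MSX1 and DLX6 were tested and not called (limma adjusted p of 0.31 to 1). TBX3, TBX18 and EN1 lie near the lower limit of what these TPM resolve.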
